A study of Homo sapiens with 4 samples.

Results

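The AP-1, EGR and IER genes examined here encode transcription factors and response proteins, many of them of the immediate-early class. They were measured in MKN45 cells with and without lipopolysaccharide (LPS) of the stomach bacterium Helicobacter pylori. The members were the probe sets that the platform annotation gives to FOS, FOSB, FOSL1, FOSL2, JUN, JUNB, JUND, EGR1, IER2 or IER3 alone, and there were 22 of them among 54613 probe sets on the array, covering all 10 genes. MKN45 is an established line of human gastric epithelial cells. One group of 2 arrays held untreated cells, given fresh medium, and the other group of 2 arrays held cells given medium with 10 µg/ml LPS, both sampled at 8 h. All cultures grew in RPMI with foetal calf serum, penicillin and streptomycin. The design text describes a pair of independent experiments, and each array is a bulk RNA sample of 1 line, in which fewer cells of a type and less RNA per cell cannot be told apart.

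AP-1 is a dimer of a JUN protein with a FOS or another JUN protein, joined through a leucine zipper, that binds a short palindromic DNA element in the control regions of genes for growth, invasion and inflammation. EGR1 is a zinc finger transcription factor that binds GC-rich promoters. Immediate-early genes are transcribed within minutes of a stimulus without new protein synthesis, mostly through MAP kinases, serum response factor and its partners. Their messenger RNAs are short-lived, so a late sample would show only what remains after any first wave. Both groups were sampled at 8 h alone, so whether such a wave took place in these cells was not tested. In gastric epithelium these factors are known to be induced by live H. pylori and by growth factors.

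Promoter windows from RefSeq on GRCh38.p14, from 250 bases before to 50 bases after the start site, were found for 8 of the 10 genes, and FOSL1 and IER3 had no entry. They were searched on both strands for the CArG box bound by serum response factor, for TGACGTCA (the cyclic AMP response element, also bound by JUN and ATF dimers), for TGANTCA (the AP-1 element), for GCGNGGGCG (the EGR element) and for the NF-kB site. The 3 windows that held a match are shown, because they hold elements of the kinds known to act on immediate-early genes. Capitals mark the matches, and each window is written 5′ to 3′ on the strand of its gene. EGR1 lies on the plus strand at chr5:138465229-138465528, FOSL2 on the plus strand at chr2:28392608-28392907 and JUND on the minus strand at chr19:18281573-18281872.
EGR1: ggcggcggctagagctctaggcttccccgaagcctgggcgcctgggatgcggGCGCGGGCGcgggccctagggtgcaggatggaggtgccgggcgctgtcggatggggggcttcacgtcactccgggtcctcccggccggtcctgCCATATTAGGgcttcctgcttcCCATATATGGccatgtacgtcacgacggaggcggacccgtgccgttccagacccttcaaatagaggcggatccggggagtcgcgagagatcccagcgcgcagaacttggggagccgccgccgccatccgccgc
FOSL2: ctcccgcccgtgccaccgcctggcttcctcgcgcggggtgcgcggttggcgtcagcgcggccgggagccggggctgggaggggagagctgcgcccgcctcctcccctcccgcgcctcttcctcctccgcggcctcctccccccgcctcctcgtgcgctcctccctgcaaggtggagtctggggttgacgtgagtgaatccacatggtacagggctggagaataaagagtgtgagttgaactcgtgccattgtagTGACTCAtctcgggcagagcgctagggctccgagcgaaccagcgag
JUND: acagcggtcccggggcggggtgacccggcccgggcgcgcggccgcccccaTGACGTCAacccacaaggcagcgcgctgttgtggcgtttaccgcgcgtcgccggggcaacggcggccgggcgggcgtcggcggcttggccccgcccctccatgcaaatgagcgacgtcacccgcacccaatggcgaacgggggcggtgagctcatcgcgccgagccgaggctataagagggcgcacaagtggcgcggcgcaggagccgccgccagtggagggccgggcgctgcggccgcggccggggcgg

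The EGR1 window held 2 CArG boxes, starting 105 and 83 bases before the start site, and 1 EGR element starting 198 bases before it. A CArG box was found in 1.29% of all 35116 windows of this length and the EGR element in 9.43%. The FOSL2 window held 1 AP-1 element, TGACTCA, starting at base 5 of the transcript, an element present in 7.71% of all windows. The JUND window held 1 TGACGTCA, starting 200 bases before the start site, against 1.85% of all windows. The NF-kB site was found in 0 of the 8 windows and in 5.91% of all windows. Elements farther from the start sites lie outside these windows, and a match is a string of letters, not a measured binding site.

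At 8 h, 0 of the 22 probe sets passed the test between LPS-treated and untreated cells (limma adjusted p under 0.05 over 38229 probe sets, smallest adjusted p of a member 0.193). The background was 0.00785% of probe sets called higher and 0% called lower. By the unadjusted p, 3 of the 22 were under 0.05 and higher (13.6%, against 3.69% of all probe sets tested) and 4 were lower (18.2%, against 8.02%). Those 7 probe sets belonged to 5 genes, FOSL1 and JUND on the higher side and FOSL2, JUN and EGR1 on the lower side. Probe sets of 1 gene read the same transcript pool, so they are not separate replicates.

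**Figure D1:**
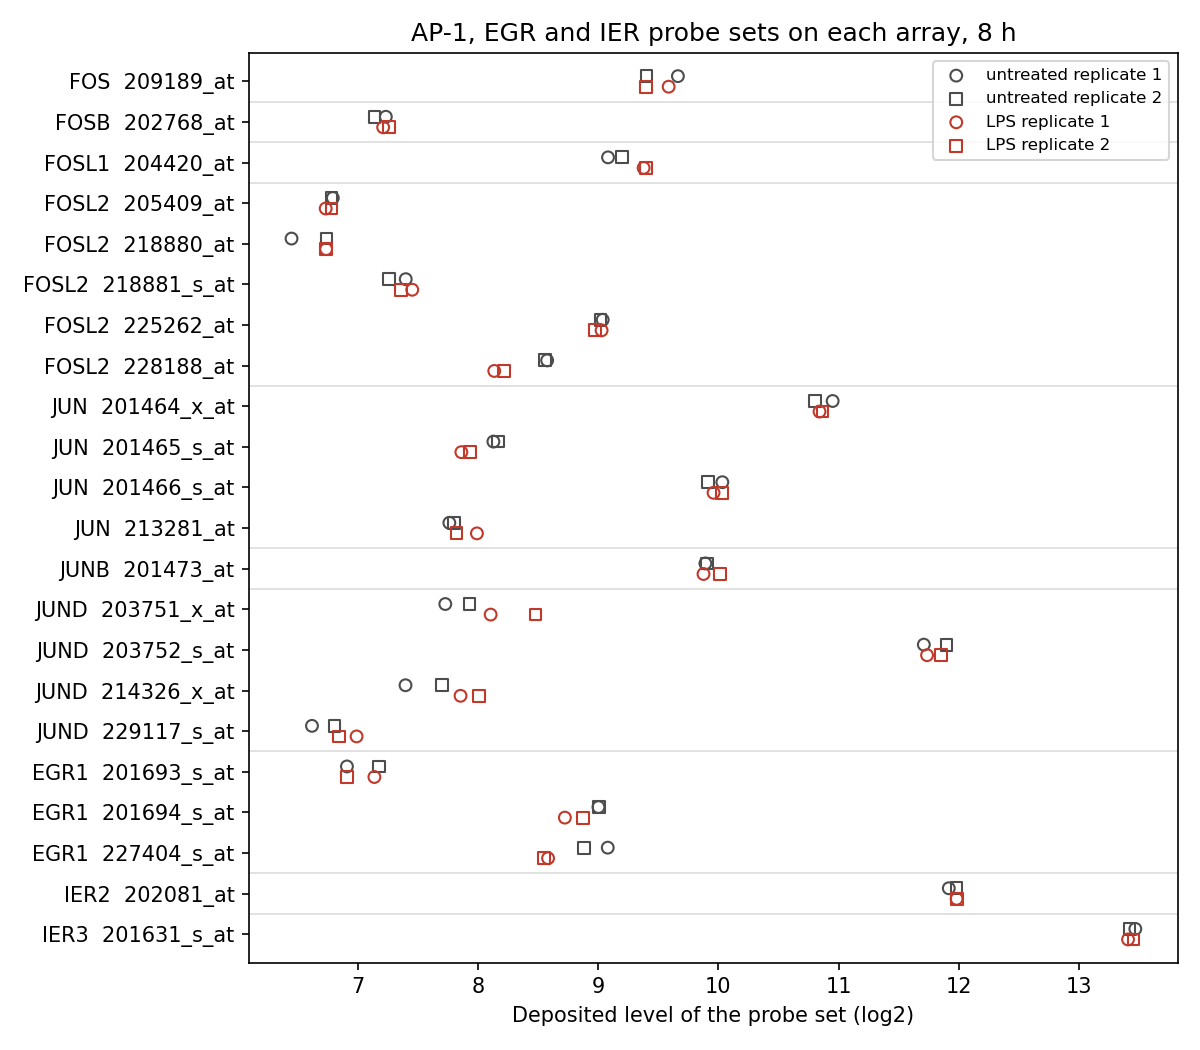
Level of each of the 22 probe sets (log2, horizontal axis) on the 2 untreated arrays (grey) and the 2 LPS arrays (red), with circles for replicate 1 and squares for replicate 2. For FOS the colours overlap between 9.40 and 9.66, whereas for FOSL1 both red points, at 9.38 and 9.40, lie to the right of both grey points.

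Levels are given on the deposited log2 scale, and since every probe set has its own binding efficiency, a level is compared only with the same probe set on another array. All 22 members lay above the level filter of 6.06, in untreated cells as in treated ones. The 2 groups were fully separated on 11 of the 22 probe sets, with both LPS arrays above both untreated arrays on 6 (27.3%, against 19.1% of all probe sets tested) and below them on 5 (22.7%, against 24.2%). The median absolute difference was 0.062 over the members and 0.081 over all probe sets tested. In a design of 2 against 2 arrays an exact permutation test of a single value cannot go below p = 0.333.

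Among the FOS proteins, the partners that need a JUN protein to bind DNA, FOS itself did not differ beyond its spread. FOS lay at 9.66 and 9.40 in untreated cells and at 9.59 and 9.40 with LPS. The groups overlapped, and replicate 2 of each group was the lower one. The difference, LPS minus untreated, was -0.040 with a standard error of 0.11 (95% interval -0.30 to 0.22, limma adjusted p = 0.921), so a change of FOS above 1.16-fold or below 0.813-fold lay outside the interval. After quantile normalization the sign of this difference turned, to 0.0082.

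FOSB, a close relative of FOS, lay at 7.23 and 7.14 untreated and at 7.21 and 7.26 with LPS. Its groups overlapped, with a difference of 0.049 (95% interval -0.14 to 0.24, limma adjusted p = 0.849).

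FOSL1, which encodes FRA1, a FOS-related factor linked to epithelial invasion, had the largest difference among the genes with a single probe set. Its levels were 9.08 and 9.20 in untreated cells and 9.38 and 9.40 with LPS. Both LPS arrays were higher than both untreated arrays, and the LPS pair differed by less than the untreated pair. The difference was 0.25 with a standard error of 0.077, a fold of 1.19 (95% interval 1.05 to 1.35), and it did not pass (limma adjusted p = 0.325). Leaving out any 1 array kept the difference between 0.19 and 0.31.

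FOSL2, which encodes FRA2, was read by 5 probe sets that did not give the same difference. Probe set 228188_at lay at 8.58 and 8.56 untreated and at 8.14 and 8.22 with LPS. Both LPS arrays were lower than both untreated arrays by several times the gap within either pair. The difference was -0.39 with a standard error of 0.077, a fold of 0.763 (95% interval 0.673 to 0.865), with the smallest adjusted p of all members (limma adjusted p = 0.193). The other FOSL2 probe sets differed from it, at -0.030 on 205409_at, 0.14 on 218880_at, 0.075 on 218881_s_at and -0.027 on 225262_at, and each of their intervals included 0. Probe set 225262_at, the brightest of the 5, lay at 9.04 and 9.02 untreated and at 9.03 and 8.97 with LPS. The separation of groups on 205409_at, at 6.79 and 6.78 against 6.73 and 6.78, rested on a gap of 0.00042 between the nearest arrays.

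**Figure D2:**
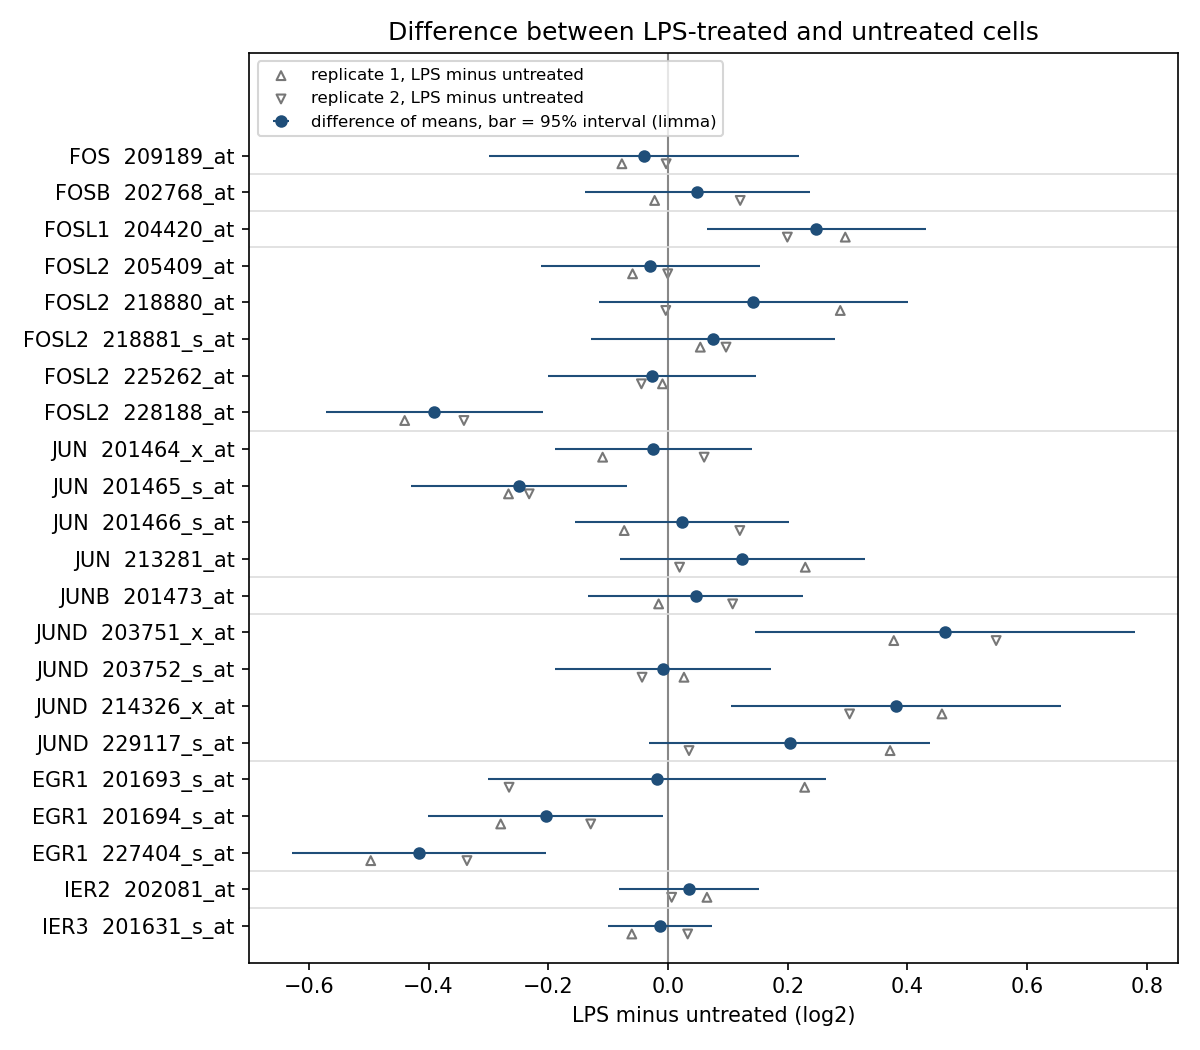
Difference between LPS-treated and untreated cells (log2, horizontal axis) for each probe set, with the limma 95% interval as a bar, and the same difference within replicate 1 and within replicate 2 as triangles. The intervals of 15 of the 22 probe sets include 0, and probe sets of JUND, FOSL2, JUN and EGR1 spread on either side of their neighbours.

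The JUN proteins can pair with each other as well as with FOS proteins. JUN, the founding member, was read by 4 probe sets. Probe set 201466_s_at lay at 10.03 and 9.91 untreated and at 9.96 and 10.03 with LPS, with overlapping groups and a difference of 0.023 (95% interval -0.16 to 0.20, limma adjusted p = 0.936). Probe set 201464_x_at lay at 10.95 and 10.81 against 10.84 and 10.87, also overlapping, with a difference of -0.024 that became 0.023 after quantile normalization. Probe set 201465_s_at was the exception.

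On that JUN probe set the levels were 8.13 and 8.17 untreated and 7.86 and 7.94 with LPS, lower on both LPS arrays. The difference was -0.25 with a standard error of 0.077, a fold of 0.841 (95% interval 0.742 to 0.954, limma adjusted p = 0.322). Probe set 213281_at went the other way, at 7.76 and 7.80 against 7.99 and 7.82, a difference of 0.12 whose interval included 0 (-0.081 to 0.33). JUN therefore had a lower, a higher and a pair of near-zero readings, none of them past the test.

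JUNB, a JUN protein that often opposes JUN on shared targets, lay at 9.89 and 9.91 untreated and at 9.88 and 10.01 with LPS. The LPS arrays fell on either side of the untreated pair, and the difference was 0.046 (95% interval -0.13 to 0.23, limma adjusted p = 0.852).

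JUND, the JUN protein that many cells keep at a steady level, was read by 4 probe sets whose differences ran from -0.0083 to 0.46. Its brightest probe set, 203752_s_at, lay at 11.71 and 11.90 untreated and at 11.74 and 11.85 with LPS. The groups overlapped fully there, with a difference of -0.0083 (95% interval -0.19 to 0.17, limma adjusted p = 0.983). The sign of that value turned after quantile normalization, to 0.030.

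The 3 dimmer JUND probe sets were all higher with LPS. Probe set 203751_x_at lay at 7.73 and 7.93 untreated and at 8.11 and 8.48 with LPS. The difference was 0.46 with a standard error of 0.13, a fold of 1.38 (95% interval 1.11 to 1.72, limma adjusted p = 0.302), and the LPS arrays differed from each other by 0.37. Probe set 214326_x_at lay at 7.40 and 7.70 against 7.86 and 8.01, a difference of 0.38 (95% interval 0.10 to 0.66, limma adjusted p = 0.322). Probe set 229117_s_at lay at 6.62 and 6.81 against 6.99 and 6.84, a difference of 0.20 whose interval included 0 (-0.031 to 0.44). On all 3 both LPS arrays were above both untreated arrays, while the brightest probe set of the same gene showed no such separation. With 1 array left out these differences ran from 0.28 (without LPS replicate 2) to 0.65 on 203751_x_at, from 0.23 (without untreated replicate 1) to 0.53 on 214326_x_at and from 0.11 to 0.30 on 229117_s_at.

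The suffix of an Affymetrix probe set says how unique its probes are, and sets ending in _x_at or _s_at can bind more than 1 transcript. Of the 22 members 10 end in _at, 9 in _s_at and 3 in _x_at, and JUND, EGR1 and IER3 are read only by the last 2 kinds. Among all 3431 _x_at probe sets tested the median difference was 0.00037, and 0.758% of them were higher by at least 0.3. Whether the dimmer JUND sets bind other transcripts was not tested.

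EGR1 was lower with LPS on a pair of its 3 probe sets. Probe set 227404_s_at lay at 9.08 and 8.88 untreated and at 8.58 and 8.55 with LPS. The LPS arrays lay close together and both were below both untreated arrays. The difference was -0.42 with a standard error of 0.090, a fold of 0.749 (95% interval 0.647 to 0.868), and it did not pass (limma adjusted p = 0.225).

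Probe set 201694_s_at of EGR1 lay at 9.00 and 9.01 untreated and at 8.72 and 8.88 with LPS, a difference of -0.20 (95% interval -0.40 to -0.0080, limma adjusted p = 0.413). It had the same order of groups as 227404_s_at and a smaller difference. The dimmest EGR1 probe set, 201693_s_at, lay at 6.91 and 7.18 against 7.14 and 6.91, with crossing arrays and a difference of -0.019. With 1 array left out the difference of 227404_s_at stayed between -0.51 and -0.32, and that of 201693_s_at ran from -0.15 to 0.12. The EGR1 values thus had no probe set with a higher level beyond its spread, and the upper bounds of the fold were 0.868, 0.994 and 1.20.

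IER2, a small nuclear protein of the growth factor response, lay at 11.92 and 11.98 untreated and at 11.98 and 11.99 with LPS. Both LPS arrays were nominally higher, by 0.00089 at the nearest pair, and the difference was 0.036 (95% interval -0.082 to 0.15, limma adjusted p = 0.818). IER3, a stress-response and survival protein that is also a known NF-kB target, was the brightest member. Its levels were 13.47 and 13.42 untreated and 13.41 and 13.45 with LPS, and the groups overlapped. The difference was -0.014 with a standard error of 0.037, a fold of 0.990 with a 95% interval of 0.932 to 1.05 (limma adjusted p = 0.918). The interval of IER3 was the narrowest of the 22 in this fit with intensity trend. In eBayes without trend its standard error was 0.0695, against 0.0684 for FOSL2 205409_at. The level of IER3 lay in the brightest of 10 equal bins of the probe sets tested. Differences in that bin were smaller in general, with a median absolute value of 0.066.

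**Figure D3:**
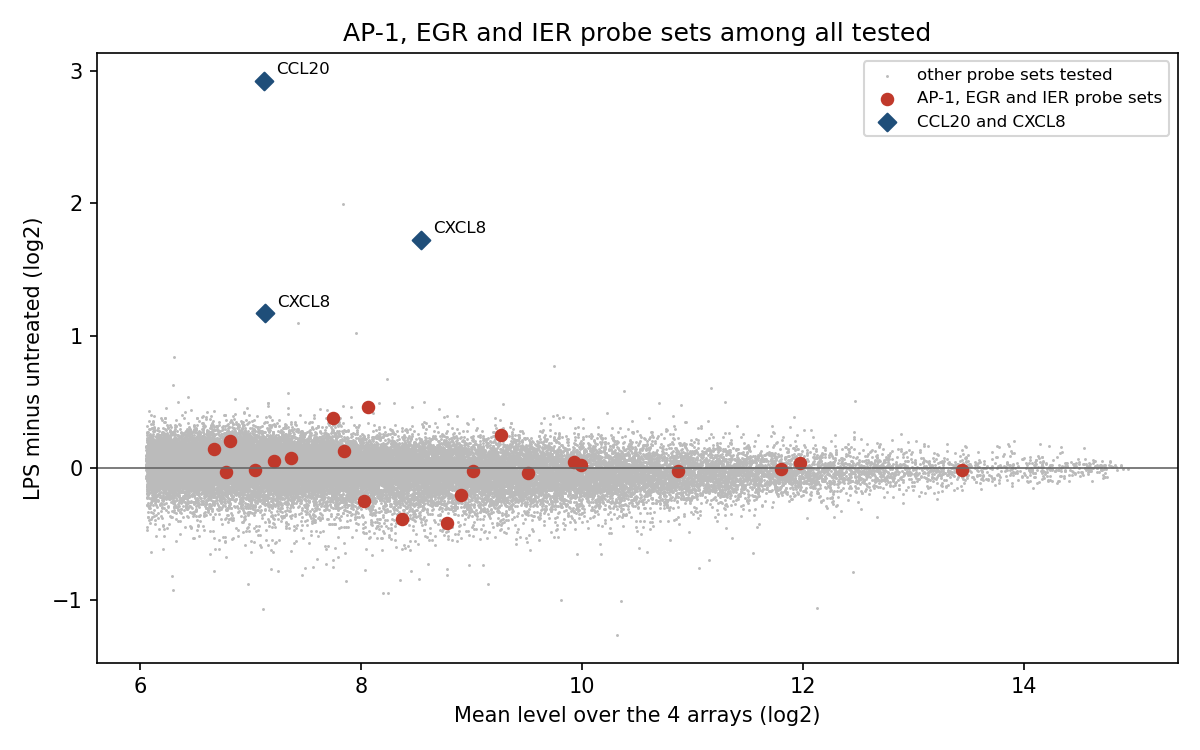
Difference between LPS-treated and untreated cells (log2, vertical axis) against the mean level over the 4 arrays (log2, horizontal axis) for 38229 probe sets in grey, the 22 members in red and the probe sets of CCL20 and CXCL8 as blue diamonds. The red points lie between -0.42 and 0.46, inside the grey cloud or at its edge, and the CCL20 point lies at 2.93.

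The same arrays carried a response elsewhere. The chemokine gene CCL20, a target of NF-kB, was 7.61-fold higher (95% interval 6.62 to 8.74, limma adjusted p = 1.18e-06). CXCL8, whose promoter is known for adjoining NF-kB and AP-1 elements, was 3.31-fold higher on its brightest probe set (95% interval 2.90 to 3.78, limma adjusted p = 3.21e-05). Both come from the fit of 1 probe set per gene. CCL20 lay at 5.70 and 5.61 untreated, under the level filter of 6.06, and at 8.66 and 8.50 with LPS. It therefore passed the filter only through the LPS arrays, and its fold rests on a low baseline. The other CXCL8 probe set differed by 1.17 and did not pass in the fit of all probe sets (limma adjusted p = 0.123). The intervals of all 22 members lay between 0.647-fold and 1.72-fold. A share of 18.2% of the members (4 of 22, on JUND, FOSL2 and EGR1) differed by at least 0.3 in either direction, against 3.40% of all probe sets tested.

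With each gene represented by its brightest probe set, 0 of the 10 genes passed (limma over 16252 genes, against 0.0308% of genes called higher and 0.0308% called lower). At an unadjusted p under 0.05, 1 gene was higher, FOSL1 at 0.25 (adjusted p = 0.218), and 1 was lower, EGR1 at -0.20 (adjusted p = 0.307), against 4.68% of all genes higher and 9.63% lower, so for 10 genes these counts lie near the background. This choice of probe set places JUND at -0.0083 and FOSL2 at -0.027, and so leaves out the probe sets on which those genes differed most.

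Of 79 related genes in 6 fixed lists, 64 were measured by a single-gene probe set above the level filter, and 0 passed in limma. At an unadjusted p under 0.05, 9 of the 64 had a higher level with LPS and 2 of the 64 a lower one. Over all 16252 genes tested, 761 (4.68%) were higher and 1565 (9.63%) lower. Higher genes thus outnumbered lower ones among the related genes, and the reverse held among all genes. The median difference of the 64 was 0.018, and that of all genes -0.0047.

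The AP-1 dimer partners, bZIP proteins of the ATF, BATF and MAF groups, had 10 of 13 members measured and 0 past the test, with 1 above and 2 below 0 among those at an unadjusted p under 0.05. MAFF, a small MAF protein, was at 8.16 and 7.93 untreated and at 8.27 and 8.29 with LPS (difference 0.24, limma adjusted p = 0.293), and its other probe set differed by 0.19. ATF2, a partner of JUN, differed by -0.20 on its brightest probe set (limma adjusted p = 0.260) and by 0.19 on another probe set above the filter. BATF2 differed by -0.21 (limma adjusted p = 0.336). ATF3, a stress-induced partner, differed by 0.11 with an interval that included 0 (-0.079 to 0.29), and was named after its values were seen.

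The list of the EGR family and its NAB corepressors, which also holds WT1, had 4 of 6 members measured and 0 at an unadjusted p under 0.05 in limma. The measured ones were EGR4, WT1, NAB1 and NAB2, while EGR2 and EGR3 were not measured. EGR4 differed by 0.087 and NAB1, a corepressor that binds EGR proteins, by -0.075 on its brightest probe set, with 0.32 and 0.085 on its other probe sets above the filter. Serum response factor and its partners, which bind CArG boxes like those in the EGR1 window, had 7 of 7 members measured and also 0 at an unadjusted p under 0.05, within a range of -0.071 to 0.068 on the brightest probe set of each. MRTFB, a coactivator of serum response factor, differed by -0.071, and by -0.16 on its other probe set above the filter, and FHL2 differed by 0.052.

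The MAP kinases and the kinases around them had 13 of 17 members measured, with 0 past the test in limma and 2 above and 0 below 0 among those at an unadjusted p under 0.05. RPS6KA4, the chromatin kinase MSK2, lay at 10.07 and 10.49 untreated and at 10.46 and 10.80 with LPS, with overlapping groups and a difference of 0.35 (limma adjusted p = 0.318). MAPK10, a JNK family kinase, differed by 0.23 (limma adjusted p = 0.319), and its other probe sets lay under the filter and differed by 0.012 and 0.065.

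Other immediate-early genes had 17 of 18 members measured and a median of -0.024, with 0 past the test in limma and 2 above and 0 below 0 among those at an unadjusted p under 0.05. PPP1R15A, a stress-induced regulator of translation, differed by 0.22 (limma adjusted p = 0.278) and by 0.082 on its other probe set. The matrix protein gene CCN1 differed by 0.16 (limma adjusted p = 0.341) and by 0.31 on its other probe set.

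Known AP-1 and EGR target genes had 13 of 18 members measured, with 0 past the test in limma, 4 above and 0 below 0 among those at an unadjusted p under 0.05 and a median of 0.11, above that of the other lists. PLAU, which encodes the urokinase protease, lay at 8.64 and 8.60 untreated and at 8.90 and 9.01 with LPS. Both LPS arrays were higher, the difference was 0.33 (1.26-fold, limma adjusted p = 0.150), and the other PLAU probe set differed by 0.46. The protease MMP9 differed by 0.24 (limma adjusted p = 0.260), the heme-degrading enzyme HMOX1 by 0.21 (adjusted p = 0.328) and the cyclin CCND1 by 0.28 with overlapping groups (adjusted p = 0.318), while the other CCND1 probe set differed by -0.076. Several of these genes are also targets of NF-kB.

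**Figure D4:**
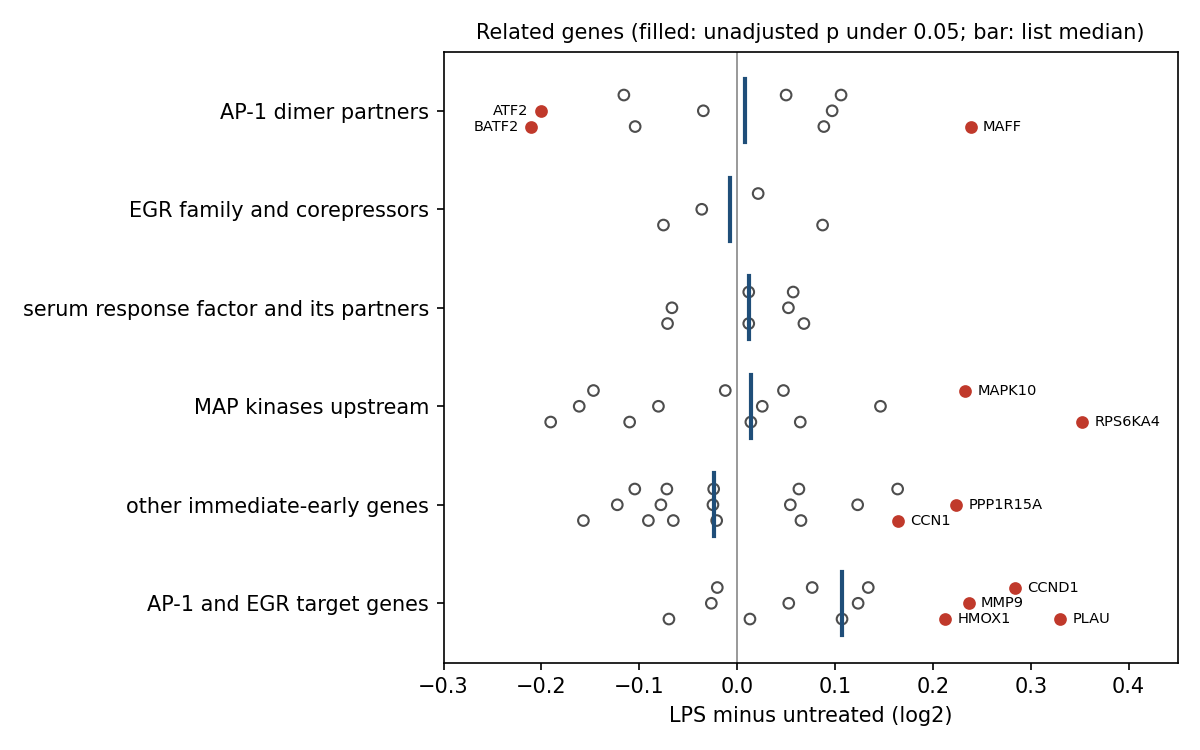
Difference between LPS-treated and untreated cells (log2, horizontal axis) for the 64 related genes measured, by list, with filled points for an unadjusted limma p under 0.05 and a blue bar at each list's median. The medians lie between -0.024 and 0.11, and the filled points lie between -0.21 and 0.35.

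The arrays correlated with each other at r = 0.996 to 0.998 over probe sets. The epithelial markers EPCAM, CDH1, KRT8, KRT18 and KRT19 lay at 13.08 to 14.65 on every array, and their summed level (log2 of the sum) was 16.24 and 16.29 untreated and 16.29 and 16.29 with LPS. Of the leukocyte markers reported here, PTPRC and CD14 lay under the level filter and CD3E and ITGAM above it, and the summed level was 8.76 to 8.79 untreated and 8.74 to 8.82 with LPS. Of the fibroblast and endothelial markers, CDH5 lay under the filter and COL1A1, COL1A2, PDGFRB and PECAM1 above it, with COL1A1 the brightest at 9.05 to 9.24. The summed level of this list was 10.06 to 10.26 untreated and 10.23 to 10.28 with LPS. Poly-A spike-ins, foreign transcripts put into each RNA sample, had mean levels of 8.60 and 8.25 in the untreated group and of 7.98 and 7.92 in the LPS group. The 3′ minus 5′ difference of ACTB, a measure of RNA integrity and labelling, was 0.64 and 0.86 untreated and 0.39 and 0.63 with LPS, and that of GAPDH was 0.024 and 0.065 untreated and 0.0010 and 0.11 with LPS. Hybridisation spike-ins had mean levels of 10.29 and 10.10 in the untreated group and of 9.89 and 10.19 in the LPS group. The part of these control values in the differences above was not tested.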

How the data were processed

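Affymetrix arrays of MKN45 cells, 2 untreated and 2 LPS-treated at 8 h, were grouped by their sample labels. The deposited table gives 54675 probe set levels, which its range shows to be log2. The submitters' processing notes name MAS5 and RMA, without saying which made the values. The 4 sorted columns never lay more than 0.0977 apart, so a shift of all transcripts in 1 direction would not be visible. Leaving out 62 control probe sets and those with a mean under the 30 percentile (6.06) left 38229. LPS was compared with untreated by limma 3.58.1 in R 4.3.3 (lmFit, eBayes with intensity trend, 7.06 degrees of freedom, two-sided, Benjamini-Hochberg adjustment over all probe sets or genes tested), with no replicate block. The gene fit used the brightest probe set of each of 16252 genes. The procedure was tested on simulated data.

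All members and every probe set of theirs were named. In each related list up to 4 genes at an unadjusted p under 0.05 were named by smallest p, or otherwise the 2 with the smallest p, and CCL20 and CXCL8 served as a reference. The members, lists and tests were chosen with earlier results of these data known. The alternatives dropped the filter or raised it to the 50 percentile, rescaled the arrays (cyclic loess, median centring, quantile normalization), changed eBayes (robust, or no trend), added a replicate block, averaged all probe sets of a gene, dropped _s_at and _x_at sets, or omitted 1 array at a time. The number of arrays limits the precision, and p-values measure only the spread between these arrays. Promoter windows came from RefSeq, GRCh38.p14, and are matched by symbol.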

Additional observations from a re-analysis of the deposited data

How the results depend on the processing

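Under the alternatives run, 0 member probe sets and 0 member genes passed, with a smallest adjusted p of 0.113 for a probe set, without untreated replicate 2. With a replicate block, 2 related genes passed, CCND1 and RPS6KA4 (adjusted p = 0.0384 each), against 0 without it, and the count over all genes rose from 10 (5 higher) to 165 (37 higher). Arrays of the same number deviated together (r = 0.21 over probe sets), but the labels do not say that a number marks an experiment, so the block is an alternative only. Of the 22 probe set differences, 13 kept their sign under all alternatives that tested them. The other 9 changed sign at least once and none of them was called. After quantile normalization the differences were 0.0082 for FOS, 0.019 for FOSL2 225262_at, 0.023 for JUN 201464_x_at and 0.030 for JUND 203752_s_at, and after cyclic loess 0.0044, 0.010, 0.022 and 0.033 for these and 0.015 for IER3. With 1 array left out the ranges were -0.17 to 0.090 for FOS, -0.0037 to 0.29 for FOSL2 218880_at, -0.054 to 0.00023 for FOSL2 225262_at, -0.097 to 0.048 for JUN 201464_x_at, -0.037 to 0.084 for JUN 201466_s_at, -0.022 to 0.11 for JUNB, -0.10 to 0.086 for JUND 203752_s_at, -0.15 to 0.12 for EGR1 201693_s_at and -0.038 to 0.010 for IER3. The cause of these changes was not tested. The filter at the 50 percentile left 19 of the 22 probe sets.

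Over the whole array the calls moved with the scaling and with other choices. Of probe sets, 3 were called, all higher, against 8 (4 higher) after quantile normalization or cyclic loess, 17 (6 higher) after median centring and 11 (5 higher) without untreated replicate 1. Of genes, 10 were called (5 higher), against 28 (14 higher) after quantile normalization, 38 (18 higher) after cyclic loess, 99 (19 higher) after median centring, 19 (9 higher) without untreated replicate 2, 18 (8 higher) with robust eBayes, 5 with no filter and 4 with eBayes without trend or without LPS replicate 2, the last 3 all higher. Signal over background was not given, so how far the dimmer members lie above it is unknown.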
